A study of Mus musculus with 6 samples.

Results

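The 39 genes described here encode the enzymes and regulators of cholesterol and fatty acid synthesis, measured in mouse liver RNA with and without Sec15. They were chosen by name: each array probe whose transcript accession maps to 1 of 39 RefSeq mouse symbols was a member's probe, and 56 probes did. All 39 genes entered the test, among 22833 genes in all, and the probe used for each was well above background on all 6 arrays. The sterol arm held 20 genes (18 enzymes from acetoacetyl-CoA to cholesterol, the sterol carrier Stard4 and the transcription factor gene Srebf2), and the lipogenic arm held 16 (13 enzymes, Thrsp, and the factor genes Srebf1 and Mlxipl). The other 3, Scap, Insig1 and Insig2, regulate the arms jointly. The mice were male, aged 6 weeks and untreated. Liver total RNA of 3 wild-type (WT) and 3 Sec15 knockout (KO) samples was hybridised, each to its own single-colour (Cy3) array. Sec15 is a subunit of the exocyst, which tethers secretory vesicles to the plasma membrane. The labels do not say which Sec15 gene was deleted, in which cells, or on which strain background, and they do not say that each replicate was a separate animal, so the p-values speak only of how far these samples vary, which may be technical. In whole liver, fewer cells of a type and less RNA per cell cannot be told apart.

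Hepatocytes make cholesterol by condensing acetyl-CoA to mevalonate, building squalene from it, closing squalene into lanosterol and trimming lanosterol to cholesterol. Fatty acids are built from the same acetyl-CoA by acetyl-CoA carboxylase and fatty acid synthase and are then lengthened by elongases and given double bonds by desaturases. The SREBP factors control the genes of both routes. Scap carries them out of the endoplasmic reticulum when sterols are low, and the Insig proteins hold Scap back when sterols are high. SREBP-2, from Srebf2, acts mainly on sterol genes and SREBP-1c, from Srebf1, mainly on lipogenic genes, where liver X receptors, insulin and the glucose-responsive factor ChREBP (Mlxipl) act as well.

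Values are log2 signals relative to the array's 75th percentile. Differences are KO minus WT on that scale, with n = 3 per group, and adjusted p-values come from limma with Benjamini-Hochberg adjustment over all 22833 genes. Between 64.81% and 70.26% of the 39429 probes were well above background on an array, no spot was saturated, and the number of arrays limits the precision. Exoc6, a Sec15 gene, had 1 probe, which rose well above background on a single WT array and on no KO array. The measured probe of Exoc6b, the other Sec15 gene, was lower on all 3 KO arrays (difference -0.53, SE 0.15, adjusted p = 0.0436 over all probes). Since the deleted part is not named, neither probe checks the genotype labels. The file headers place the 3 WT arrays and KO replicate 2 in 1 scan and KO replicates 1 and 3 in another. WT replicate 3 lay between WT replicates 1 and 2 for 66.1% of genes and for 32 of the 39 members. KO replicate 3 lay between the other KO arrays for 58.4% of genes and for 30 of the members, and the cause was not tested. WT replicates 1 and 2 may come from 1 animal, since their deposited names share a number. The hepatocyte markers Alb, Ttr, Apoa1, Apoh, Fgb, Tat, Cps1 and Hpx were well above background on every array.

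The promoters below are shown because many genes of the sterol arm read low together on 1 KO array. RefSeq promoter windows (GRCm38.p6) were matched by symbol for 31 of the 39 members, and the 250 bases before the start site were searched on both strands. The motifs were the core of the sterol regulatory element that SREBPs bind (TCACNCCAC), the NF-Y box (CCAAT), the E-box (CACGTG) and the Sp1 box (GGGCGG). In the lines that follow, 5′ to 3′ along the gene's strand, capitals mark the sterol element core and the NF-Y box, and none of those matches overlap.
Hmgcs1, chr13:119690101-119690350, plus strand: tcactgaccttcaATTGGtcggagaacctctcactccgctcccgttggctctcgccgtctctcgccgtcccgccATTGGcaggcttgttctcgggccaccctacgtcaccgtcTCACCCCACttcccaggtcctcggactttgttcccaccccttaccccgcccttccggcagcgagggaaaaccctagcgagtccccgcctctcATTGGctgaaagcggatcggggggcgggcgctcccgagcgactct
Cyp51, chr5:4104698-4104947, minus strand: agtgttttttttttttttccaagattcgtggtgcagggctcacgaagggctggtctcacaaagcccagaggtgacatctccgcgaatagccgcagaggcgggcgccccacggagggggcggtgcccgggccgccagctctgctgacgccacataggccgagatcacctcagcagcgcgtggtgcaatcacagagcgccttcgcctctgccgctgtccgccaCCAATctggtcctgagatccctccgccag
Msmo1, chr8:64733579-64733828, minus strand: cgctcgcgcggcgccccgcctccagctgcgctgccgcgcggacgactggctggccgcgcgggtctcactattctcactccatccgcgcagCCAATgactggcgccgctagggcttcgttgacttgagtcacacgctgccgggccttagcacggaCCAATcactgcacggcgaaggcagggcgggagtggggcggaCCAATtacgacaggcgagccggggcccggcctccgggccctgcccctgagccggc
Hsd17b7, chr1:169969206-169969455, minus strand: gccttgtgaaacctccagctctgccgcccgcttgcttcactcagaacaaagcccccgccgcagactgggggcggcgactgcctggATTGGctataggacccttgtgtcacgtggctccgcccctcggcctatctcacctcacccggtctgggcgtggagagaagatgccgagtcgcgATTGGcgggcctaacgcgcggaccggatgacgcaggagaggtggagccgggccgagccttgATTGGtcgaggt
Elovl5, chr9:77917115-77917364, plus strand: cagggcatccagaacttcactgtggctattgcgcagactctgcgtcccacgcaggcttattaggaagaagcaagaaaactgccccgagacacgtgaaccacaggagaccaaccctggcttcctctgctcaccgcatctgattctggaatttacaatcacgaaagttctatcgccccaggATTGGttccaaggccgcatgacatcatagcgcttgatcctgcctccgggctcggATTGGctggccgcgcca
Elovl6, chr3:129532136-129532385, plus strand: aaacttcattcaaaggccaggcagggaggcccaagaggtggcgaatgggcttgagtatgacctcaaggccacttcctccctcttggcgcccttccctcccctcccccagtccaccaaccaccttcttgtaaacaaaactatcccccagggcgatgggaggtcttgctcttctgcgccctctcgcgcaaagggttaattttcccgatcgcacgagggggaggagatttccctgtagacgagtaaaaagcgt
Hmgcs1, Cyp51 and Msmo1 are sterol genes with a window that were low on KO replicate 2, and Hsd17b7 is a sterol gene that was higher in KO. Fdps, Sqle, Fdft1 and Stard4 were also low on KO replicate 2. No window was matched for them, so they were not searched and the windows shown need not be typical. Elovl5 and Elovl6 are elongase genes of the lipogenic arm. The Hmgcs1 window holds the sterol element core 137 bases before the start and 3 NF-Y boxes. Msmo1 and Hsd17b7 hold 3 NF-Y boxes each, Elovl5 2, Cyp51 1 and Elovl6 none. An NF-Y box was found in a window of 15 of the 16 sterol members matched and 8 of the 12 lipogenic members, beside 37.5% of all 27025 genes with a window. The sterol element core was found in Hmgcs1 of the sterol arm and Mlxipl of the lipogenic arm, beside 1.22% of all genes. The Sp1 box was found in 15 of 16 sterol and 6 of 12 lipogenic members (35.4% of all genes), and the E-box in 3 and 2 (6.86%). A match describes these letters only, and no binding was measured.

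Of the 20 genes of the sterol arm, Hmgcs1 fell, Hsd17b7 rose and 18 did not pass the test. Across all genes tested, 12.2% were lower and 17.3% higher in KO (29.5% in either direction), so 2 of 20 is below the share among all genes. The median difference of the arm was -0.43, with 13 of the 20 genes below 0, beside a median of 0.06 over all genes. Groups did not overlap in 8 of the 20 genes, 3 with KO above WT and 5 with KO below, beside 50.7% of all genes (30.6% above and 20.1% below). The arm's genes were also spread widely among the KO arrays, with a median SD of 0.44 in KO and 0.13 in WT. The SD was larger in KO for 18 of the 20 genes, beside 59% of all genes (medians 0.18 and 0.15).

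Hmgcs1 makes HMG-CoA, the step that feeds the mevalonate pathway. Its WT arrays read 5.12, 5.00 and 5.12 and its KO arrays 4.48, 3.87 and 4.32. Every KO array was below every WT array, and KO replicate 2 was the lowest. The gene was 1.81-fold lower in KO (difference -0.86, SE 0.17, adjusted p = 0.0193). Its sign held under each of 20 other settings and its call under 16, with adjusted p from 0.000364 to 0.0857. The call ended without WT replicate 2 or 3, without KO replicate 3 and on the arrays of 1 scan alone.

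Hsd17b7, a reductase that removes a keto group late in the pathway, went the other way. It read -0.61, -0.91 and -0.73 on the WT arrays and 0.44, -0.20 and 0.27 on the KO arrays. KO was above WT without overlap, by 0.92 (SE 0.19, 1.89-fold, adjusted p = 0.0205). A second probe of the same transcript read a difference of 0.12 (SE 0.17, adjusted p = 0.609 over all probes), so the rise was seen on 1 probe of 2. With the scan as a block the first probe's difference was 0.55 (adjusted p = 0.0847).

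Sqle, the squalene epoxidase and a control point of the pathway, read 1.14, 1.82 and 1.56 in WT and 1.55, 0.00 and 1.13 in KO. KO replicate 2 stood far below the other 5 arrays, which overlapped. The difference over the groups was -0.61 (SE 0.42, adjusted p = 0.294), with a 95% interval from -1.64 to 0.42. Srebf2 read -2.46, -2.82 and -2.85 in WT and -3.30, -2.81 and -3.21 in KO. Here KO replicate 2 was level with WT and the other KO arrays were lower, a difference of -0.40 (SE 0.18, adjusted p = 0.137). The second Srebf2 probe read -0.76 (SE 0.22, adjusted p = 0.05 over all probes), and was below WT on every KO array.

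KO replicate 2 carried most of the arm's shift. It was the lowest of the 6 arrays for 13 of the 20 sterol genes, beside 15.7% of all genes, and the lowest KO array for 18 of the 20, beside 45.3%. The median of the arm, as a deviation from the WT mean, was -0.59 on KO replicate 2, -0.32 on KO replicate 3 and 0.06 on KO replicate 1. Over all genes the same medians were 0.08, 0.09 and 0.06. Fdps, which makes farnesyl diphosphate, read -1.75 below the WT mean on KO replicate 2 against -0.04 and -0.44 on KO replicates 1 and 3. The sterol demethylating oxidase Msmo1 read -1.52 there against -0.16 and -0.67, and Sqle -1.51 against 0.05 and -0.37. The lanosterol demethylase Cyp51 (-1.29 against 0.06 and -0.35) and squalene synthase Fdft1 (-1.27 against -0.13 and -0.54) had the same order. Idi1 (-1.10), the sterol dehydrogenase Nsdhl (-1.08) and the carrier Stard4 (-1.04) were low on that array too. The WT arrays of these 8 genes lay between -0.37 and 0.32 of their mean.

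**Figure D1:**
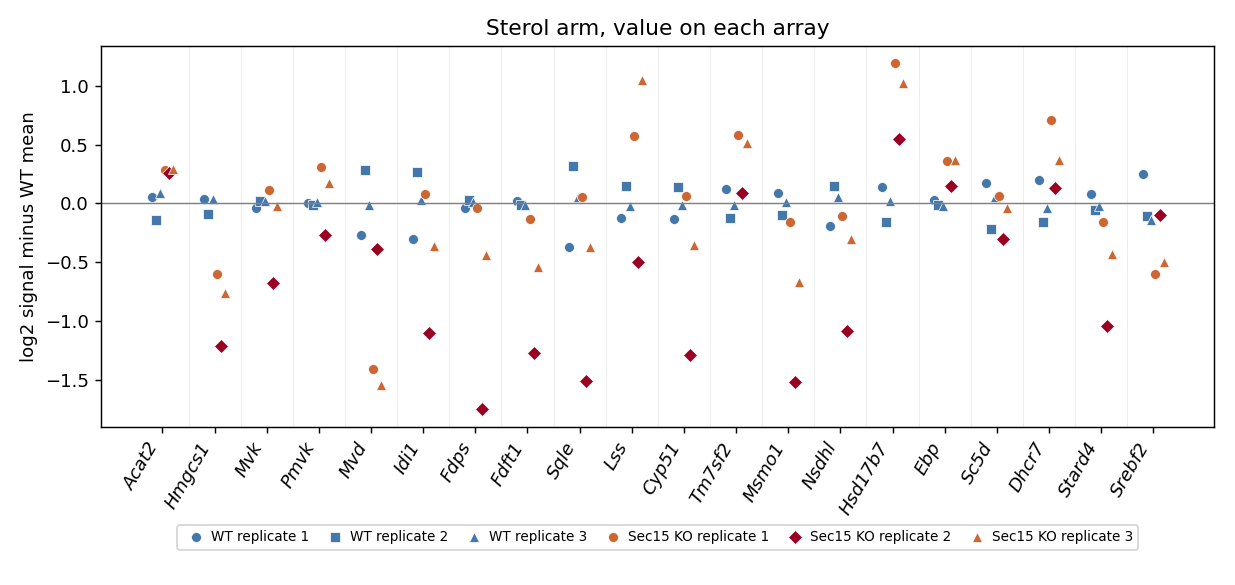
Each point is 1 array's log2 signal of a sterol arm gene minus the WT mean of that gene, with genes in pathway order and Stard4 and Srebf2 last. KO replicate 2 (dark diamonds) is the lowest of the 6 arrays for 13 of the 20 genes and reaches -1.75 at Fdps, while at Mvd the other KO arrays are lower (-1.41 and -1.54).

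KO replicate 2 is the KO array that shared its scan with the WT arrays, so a difference between it and KO replicates 1 and 3 and a difference between the scans cannot be told apart. Blocking on the scan leaves KO replicate 2 as the lone KO array set against WT, and its spread is taken from the remaining arrays. In limma's blocked fit 9 of the 20 sterol genes were lower and none higher (1 at an unadjusted p under 0.05), beside 4.68% and 5.07% of all genes (9.75% in either direction). They were Hmgcs1, Mvk, Fdps, Fdft1, Sqle (adjusted p = 0.05 after rounding), Cyp51, Msmo1, Nsdhl and Stard4, with adjusted p from 0.0233 upward and differences from -0.68 (Mvk) to -1.75 (Fdps). Hmgcs1 was the 1 member called with and without the block. On the arrays of that scan alone, without the other KO arrays, limma called 0 members and 0 genes in all. At an unadjusted p under 0.05 that fit had 3 members higher and 13 lower, and 3832 genes higher and 2927 lower.

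Without KO replicate 2 the picture of the arm changed. The median difference was -0.14, 5 of the 20 genes were higher and 3 lower, beside 25.1% and 22.2% of all genes (47.3% in either direction). The higher genes were Hsd17b7 (1.11), Lss, which closes the sterol rings (0.81, adjusted p = 0.0194), Tm7sf2 (0.55), Dhcr7 (0.54) and Ebp (0.36). Other genes of the later steps did not pass there, with Msmo1 at -0.41, Nsdhl at -0.21, Cyp51 at -0.15 and Sc5d at 0.01. The lower genes were Mvd (-1.48, adjusted p = 0.00513), Hmgcs1 (-0.68, adjusted p = 0.00705) and Srebf2 (-0.55, adjusted p = 0.0348). Mvd, the decarboxylase that makes isopentenyl diphosphate, read -1.43, -0.88 and -1.17 in WT and -2.57, -1.54 and -2.70 in KO. KO replicate 2 was the KO array nearest to WT, and over all 6 arrays the gene differed by -1.11 (SE 0.34, adjusted p = 0.0526).

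The remaining sterol genes did not pass the test over the 6 arrays. Tm7sf2 (0.40), Dhcr7 (0.40), Ebp (0.29) and Acat2 (0.28) stood above 0, and Ebp and Acat2 had no overlap between the groups. Acat2 is the cytosolic thiolase that makes acetoacetyl-CoA, and it alone among these was level on the 3 KO arrays (4.89, 4.88 and 4.91). Under quantile normalization its difference was 0 and that of Ebp -0.04, so their direction depends on the scaling. Mvk (-0.20), Pmvk (0.07) and Sc5d (-0.10) were close to 0, with 95% intervals from -0.73 to 0.33, -0.33 to 0.47 and -0.47 to 0.28.

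**Figure D2:**
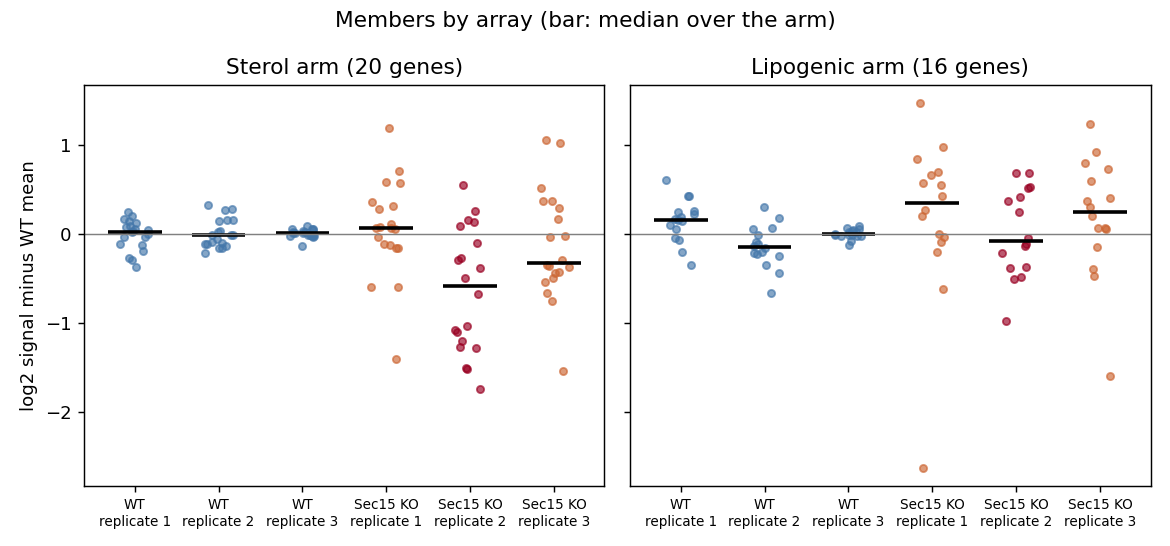
Each point is 1 gene's log2 signal minus its WT mean on the array named below, for the sterol arm (20 genes, left) and the lipogenic arm (16 genes, right), and bars mark the median over the arm. The sterol median is -0.59 on KO replicate 2 and 0.06 on KO replicate 1, and the lipogenic median is -0.08 and 0.35 on the same arrays.

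In the fit over all 6 arrays the lipogenic arm had more calls than the sterol arm. Of its 16 genes, Elovl5, Elovl6, Thrsp, Me1 and Acaca rose, Elovl3 fell, and 10 did not pass the test. Among all genes 17.3% were higher and 12.2% lower (29.5% in either direction), so the arm's calls were not far above the share among all genes. KO lay above WT without overlap in 5 of the 16 genes and below in 2, beside 30.6% and 20.1% of all genes. The median difference of the arm was 0.16, with 12 of its genes above 0, beside 0.06 over all genes. By array the median deviation from WT was 0.35, -0.08 and 0.25 on KO replicates 1, 2 and 3, against 0.16, -0.15 and 0.00 on the WT arrays. KO replicate 2 was the lowest of the 6 arrays for 4 of the 16 genes, beside 15.7% of all genes. It was the lowest KO array for 11 of the 16, beside 45.3%. The 5 rises were smaller on KO replicate 2 than on the other KO arrays, yet each stood above the 3 WT arrays there.

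Elovl5 lengthens polyunsaturated fatty acids. It read 4.78, 4.28 and 4.53 in WT and 6.00, 5.21 and 5.78 in KO, with every KO array above every WT array. The difference was 1.13 (SE 0.24, 2.19-fold, adjusted p = 0.0218). Elovl6, which lengthens the palmitate that fatty acid synthase releases, read 0.80, 1.18 and 1.05 in WT and 1.99, 1.53 and 1.92 in KO. KO was again above WT throughout, by 0.81 (SE 0.17, 1.75-fold, adjusted p = 0.0214). Elovl3, an elongase of saturated and monounsaturated chains, moved the other way and read 5.38, 6.03 and 5.79 in WT and 3.10, 4.75 and 4.14 in KO. It was 3.33-fold lower in KO (difference -1.73, SE 0.43, adjusted p = 0.0322), the largest difference of the 39 genes. The KO arrays differed widely among themselves (SD 0.83), and the 95% interval ran from -2.79 to -0.68. With WT replicates 1 and 2 counted as 1 sample, the adjusted p was 0.0645. The 3 elongase genes thus moved in opposite directions.

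Me1, the malic enzyme that supplies NADPH, read 2.65, 2.46 and 2.54 in WT and 3.25, 2.92 and 3.28 in KO. The KO arrays were all higher, by 0.60 (SE 0.13, 1.52-fold, adjusted p = 0.0241). Acaca, the carboxylase that commits acetyl-CoA to fatty acid synthesis, read 2.61, 2.12 and 2.33 in WT and 2.90, 2.77 and 2.94 in KO. The difference was 0.52 (SE 0.15, 1.43-fold, adjusted p = 0.0461). Thrsp, known as Spot 14, is a nuclear protein that promotes lipogenesis, and it read 2.17, 1.30 and 1.76 in WT and 2.59, 2.43 and 2.55 in KO. It was 1.71-fold higher (difference 0.78, SE 0.22, adjusted p = 0.0467), with KO arrays close together (SD 0.08) and WT arrays apart (SD 0.43). The calls of Acaca and Thrsp held under 9 of 20 other settings each and that of Me1 under 12. Without KO replicate 2, limma's adjusted p for Thrsp was 0.0537.

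Fasn, Scd1 and Srebf1 did not pass the test. Fasn, fatty acid synthase, read -1.87, -2.03 and -2.15 in WT and -2.11, -1.49 and -1.65 in KO. The groups overlapped, and the difference was 0.27 (SE 0.19, adjusted p = 0.295). It stood above 0 in all 20 other settings, and its 95% interval, from -0.19 to 0.72, includes the differences of Acaca and Me1. Scd1, the main liver desaturase of saturated chains, read 5.73, 4.44 and 5.17 in WT and 4.49, 4.60 and 4.64 in KO. The WT arrays were far apart (SD 0.64) and the KO values sat within their range, a difference of -0.53 (SE 0.32, adjusted p = 0.232). Srebf1 read -0.40, -0.73 and -0.58 in WT and -0.78, -0.94 and -0.97 in KO. All 3 KO arrays were below WT, but the difference of -0.33 (SE 0.12, adjusted p = 0.0892) did not pass the test, and its single probe does not separate the SREBP-1a and SREBP-1c transcripts.

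The other 7 lipogenic genes gave differences between -0.12 and 0.28 with overlapping groups. Acly (0.05), which makes cytosolic acetyl-CoA from citrate, Acss2 (0.08), which makes it from acetate, and Mlxipl (0.01) turned below 0 under quantile normalization and cyclic loess. Acacb, the carboxylase whose product restrains fatty acid oxidation, read 0.28 on its bright probe. Fads1 (0.24), Fads2 (-0.12) and Scd2 (0.08), desaturases of polyunsaturated and saturated chains, had standard errors from 0.21 to 0.23.

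**Figure D3:**
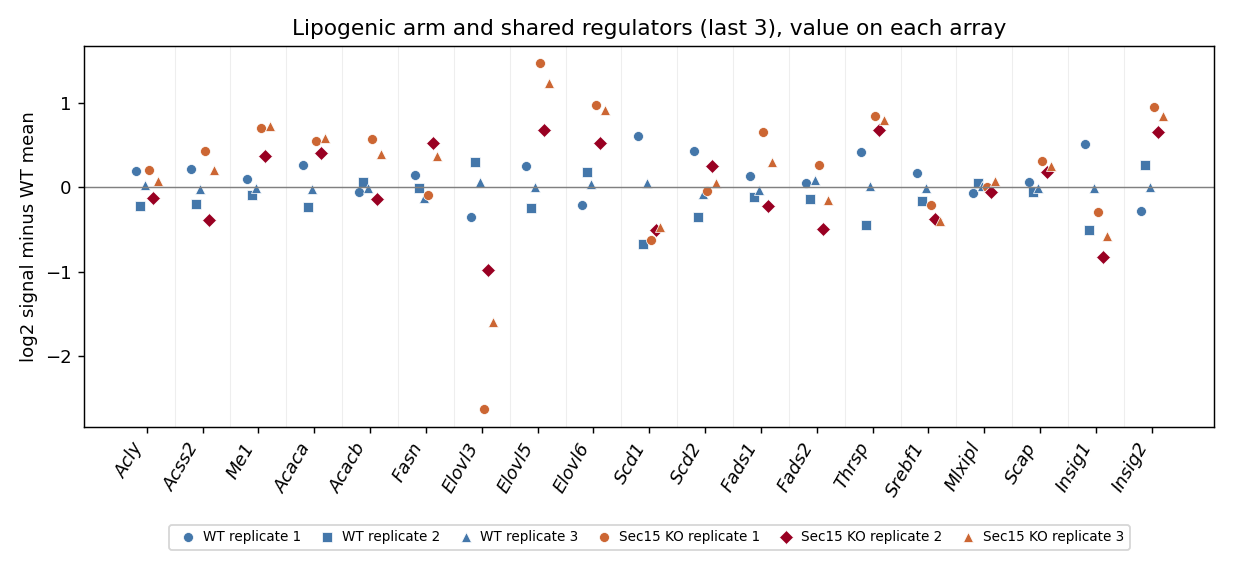
Each point is 1 array's log2 signal minus the WT mean for the 16 lipogenic genes and, at the right, Scap, Insig1 and Insig2. The 3 KO arrays lie above all WT arrays for Me1, Acaca, Elovl5, Elovl6, Thrsp, Scap and Insig2, and Elovl3 reaches -2.63 on KO replicate 1.

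Among the shared regulators, Insig2 rose on each of its probes. The probe used read 4.49, 5.04 and 4.78 in WT and 5.72, 5.42 and 5.61 in KO. Every KO array was above every WT array, by 0.81 (SE 0.17, 1.76-fold, adjusted p = 0.0207). A second probe, designed on another Insig2 transcript, read 3.33, 3.73 and 3.61 in WT and 4.71, 4.43 and 4.56 in KO, a difference of 1.01 (SE 0.14, adjusted p = 0.00989 over all probes). Insig1, whose transcription SREBPs drive, read -0.49, -1.51 and -1.02 in WT and -1.29, -1.83 and -1.58 in KO. The groups overlapped and the difference was -0.56 (SE 0.28, adjusted p = 0.17). Scap read 3.78, 3.66 and 3.71 in WT and 4.03, 3.90 and 3.97 in KO. It was higher on every KO array by a small amount (0.25, SE 0.09, adjusted p = 0.0857), and turned to -0.04 under cyclic loess.

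The calls leaned on particular arrays, among all genes as among the members. Without WT replicate 3 or without KO replicate 3, 0 of the 39 members passed limma's test (7 higher and 3 lower at an unadjusted p under 0.05 in each case). These are the arrays that lie between the other 2 of their group for most genes. Calls among all 22833 genes also fell, from 3958 higher and 2789 lower in the main fit. Omitting WT replicate 3 left 341 higher and 277 lower, while omitting KO replicate 3 left 475 and 519. Without WT replicate 2 Insig2 alone passed, and without KO replicate 1 Hmgcs1 alone. Among all genes, 1185 were higher and 1072 lower with WT replicate 2 omitted, against 1483 and 1194 with KO replicate 1 omitted. Without WT replicate 1 all 9 member calls remained. With the scan as a block, Elovl5 stood at 0.68 (adjusted p = 0.106), Elovl6 at 0.52 (adjusted p = 0.11), Thrsp at 0.68, Me1 at 0.37, Acaca at 0.41, Elovl3 at -0.98 and Insig2 at 0.65 (adjusted p from 0.101 to 0.221), and none of the 16 lipogenic genes passed limma's test (3 at an unadjusted p under 0.05). Under cyclic loess, which removes differences that follow brightness, Hmgcs1, Hsd17b7, Elovl3, Elovl5 and Elovl6 remained called, while Me1 (0.34), Acaca (0.27), Thrsp (0.55) and Insig2 (0.53) did not. Stard4 was added, so 3 members were higher and 3 lower there, beside 10.7% and 12.4% of all genes (23.1% in either direction). Array weights called 16 members higher and 11 lower, beside 39.8% and 32.3% of all genes (72% in either direction), and a block for replicate number called 4 higher and 3 lower, beside 12.8% and 10.5% (23.2%).

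**Figure D4:**
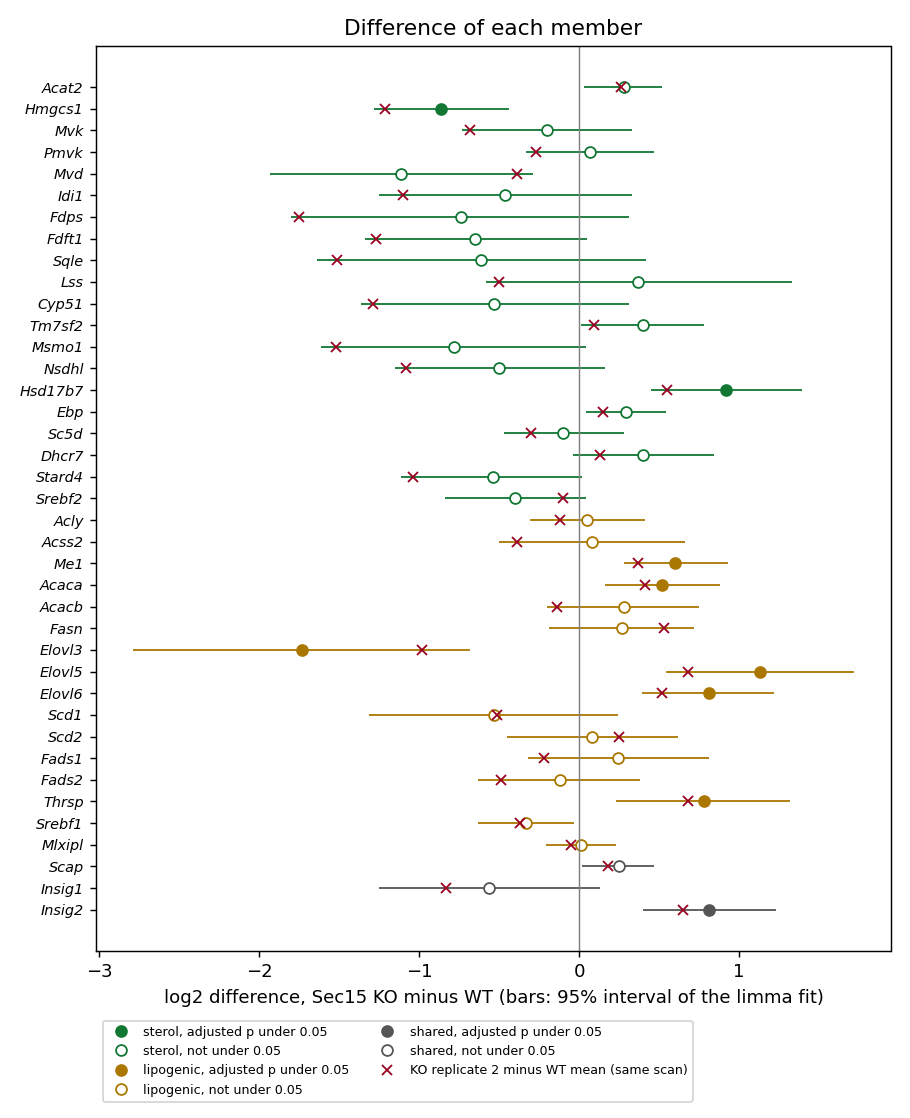
Points are the log2 differences (KO minus WT, 3 arrays each) with 95% intervals of the limma fit, filled where the adjusted p is under 0.05, and crosses are KO replicate 2 minus the WT mean within their shared scan. The crosses lie left of the points for most sterol genes (Fdps -1.75 against -0.74) and nearer to 0 for Elovl3, Elovl5 and Elovl6.

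Set side by side, the arms differed in how many genes were below the WT mean on a KO array. On KO replicate 2, 15 of the 20 sterol genes and 9 of the 16 lipogenic genes were below the WT mean, beside 43% of all genes. On KO replicate 1 the counts were 8 of 20 and 5 of 16, beside 10484 of all 22833 genes. On KO replicate 3 they were 13 of 20 and 4 of 16, beside 10106 of all genes. By these counts the arms stood furthest apart on KO replicate 3. The difference between the arms was not tested, since the members were chosen with earlier results of these data known. The genes named for KO replicate 2 alone or without it were picked after their values were seen.

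Further probes bore on several members. Of the 56 member probes, 53 passed the filter on low signals, and 24 members had a single probe. The second probe of Acacb fell by 0.58 (SE 0.16, adjusted p = 0.044 over all probes), opposite to the 0.28 of its bright probe, so no direction is given for this gene. The second probe of Acly read -0.39 (SE 0.17, adjusted p = 0.133), also opposite. The other probes of Me1, 0.31 and 0.22, had the sign of the probe used but did not pass, and the 2 other Acaca probes and the other Fdft1 probe were left out by the filter. Mvk, Pmvk, Tm7sf2, Nsdhl, Stard4, Srebf2 and Acss2 had second probes of the same sign. The second probe of Mlxipl read 0.31 (SE 0.11, adjusted p = 0.0739 over all probes), against 0.01 on the probe used. On that second probe every KO array was above every WT array. The level of 1 probe cannot be set against that of another.

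**Figure D5:**
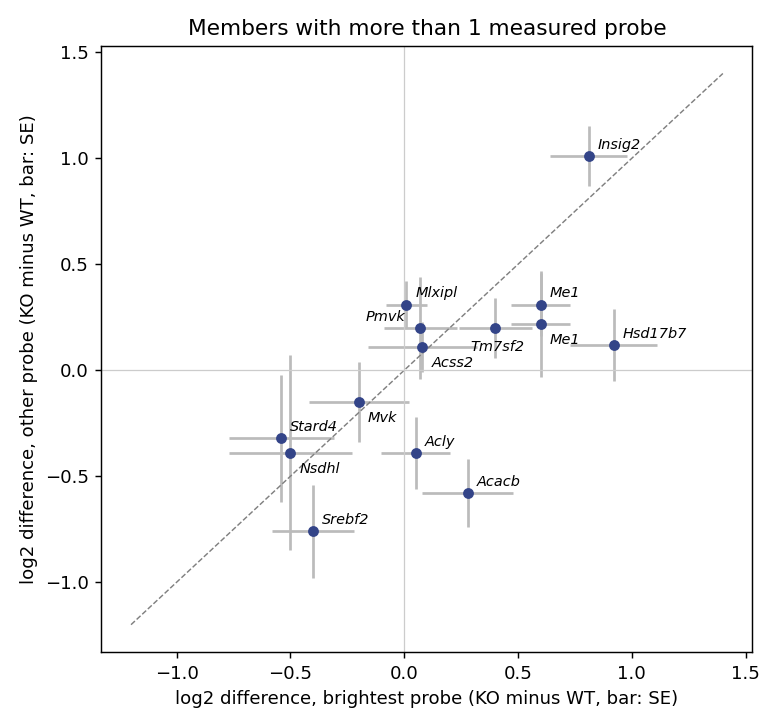
For members with more than 1 measured probe, the log2 difference of each other probe (vertical) is set against that of the brightest probe (horizontal), with SE bars and a dashed line of equality. Insig2 is high on each probe (0.81 and 1.01), Hsd17b7 on 1 of 2 (0.92 and 0.12), and Acacb has opposite signs (0.28 and -0.58).

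Other genes of the pathway were read from 5 lists. Of 18 measured genes of SREBP processing and sterol-regulated degradation, 6 rose and none fell (median 0.32), beside the 17.3% and 12.2% of all genes. They included the ubiquitin ligase genes Rnf145 (1.56-fold, adjusted p = 0.0166) and Rnf139 (1.51-fold), the COPII coat gene Sec23a (1.65-fold) and Faf2 (1.26-fold). Of 13 measured genes of sterol transport, storage and export, 5 rose and none fell (median 0.39). The median of that list was 0.04 on KO replicate 2, the KO array scanned with WT, against 0.51 and 0.49 on KO replicates 1 and 3. The 5 were the carriers Stard5 (1.83-fold, adjusted p = 0.0138) and Stard3 (1.54-fold), the lysosomal Npc2, and the exporters Abcg1 (1.47-fold) and Abcg5. Of 8 measured genes of other mevalonate products, 3 rose and none fell (median 0.41), the prenyltransferase subunits Fnta (1.65-fold) and Pggt1b (1.84-fold) and the ubiquinone side-chain enzyme Pdss1 (1.42-fold). The median of these 8 genes was 0.12 on KO replicate 2 against 0.73 and 0.44 on the other KO arrays. None of the 6 liver X receptor genes and partners passed limma's test (median 0.05), with 0 at an unadjusted p under 0.05 as well.

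Of 26 other lipogenic genes measured, 2 rose, 3 fell and 21 did not pass the test (median 0.10), beside 17.3% of all genes higher and 12.2% lower. Scd3, a close copy of Scd1 whose probe may share its signal, read 1.84, 1.18 and 1.49 in WT and -0.33, -0.41 and -0.57 in KO. It was 3.84-fold lower (difference -1.94, SE 0.19, adjusted p = 0.00604), with no overlap, and stood at -1.91 on KO replicate 2. Pklr, the liver pyruvate kinase and a target of ChREBP, read -1.01, -1.18 and -1.08 in WT and -2.35, -2.30 and -2.16 in KO. It was 2.27-fold lower (SE 0.10, adjusted p = 0.0056), about equally on the 3 KO arrays. Tecr, the last enzyme of each elongation round, read 1.44, 2.18 and 1.81 in WT and -0.61, 0.48 and -0.76 in KO. It was 4.30-fold lower (difference -2.10, SE 0.37, adjusted p = 0.0148), with KO replicate 2 nearest to WT and a difference of -1.33 with the scan as a block. Elovl2, an elongase of long polyunsaturated chains, rose 1.62-fold (adjusted p = 0.0174), and Hacd1 rose 1.70-fold.

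Markers of cell types were read in the same fit. Their counts stand beside 17.3% of all genes higher and 12.2% lower (29.5% in either direction). Of 8 adipocyte markers, 4 were measured and 2 fell, Cfd by 1.01 and Retn by 1.66 on the log2 scale. The log2 of their summed signal ran from 0.68 to 0.94 in WT and 0.43 to 0.67 in KO, while the defining markers Adipoq, Cidea and Lep were well above background on no array. Of 9 acinar pancreas markers, 5 were measured and 4 fell (summed level 1.96 to 2.31 in WT and 1.36 to 1.45 in KO). Cela1, Cela2a and Cela3b were well above background on no array, and Prss2 on 0 WT arrays and 1 KO array. Of 6 erythroid markers, 5 were measured and 3 rose (3.15 to 3.54 in WT and 5.14 to 5.53 in KO). Of 8 hepatocyte markers, 4 rose and none fell (10.78 to 10.84 and 10.97 to 11.16). Of 5 endothelial markers 3 rose (3.65 to 3.72 and 4.19 to 4.44), and of 5 measured macrophage markers 2 rose (4.41 to 4.46 and 4.86 to 5.24). Of 3 measured stellate markers 2 rose (3.99 to 4.40 and 4.63 to 4.81). Of 5 lymphocyte markers 2 fell (1.67 to 1.72 and 1.01 to 1.26), and of 4 measured bile duct markers 1 fell (-0.04 to 0.54 and 0.28 to 0.58). Their part in the results was not tested.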

How the data were processed

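Liver RNA of 3 WT and 3 Sec15 KO samples was read on single-colour Agilent arrays. The deposited values are intensity per spot from Agilent Feature Extraction 11.0.1.1, per the file headers: a processed signal, background-subtracted and detrended within the array and not normalised between arrays, and median spot and local background signals. Other deposited columns are flags of 0 or 1 per spot, per the file headers. Outlier spots (178 to 236 per array) were left out, and spots of 1 probe were averaged as log2 values. The array's 75th percentile over the 39429 non-control probes was subtracted. Probes well above background on at least 3 arrays were kept (27054), with the brightest probe per gene. Transcript accessions were matched to RefSeq symbols (GRCm38.p6, names only): 27234 probes matched 1 symbol and 12195 none. The groups were compared with limma 3.58.1 (lmFit, eBayes) in R 4.3.3, at an adjusted p of 0.05. The fit was tested on simulated data with known changes. It recovered 51 of 100 2-fold changes and 80 of 100 4-fold changes, with 7 false calls among the unchanged genes of the 22833 simulated. The simulated noise was independent between arrays and held no difference between scans, and few genes were changed. These rates may therefore differ from those of the real fit. A gene that did not pass the test may still have changed.

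Every member is accounted for. Values on every array are given for members past the threshold and for Hmgcs1, Sqle, Fasn, Acaca, Scd1, Srebf1, Srebf2, Insig1, Insig2 and Scap, and up to 4 genes with the smallest p were to be named per other list; further genes were named after their values were seen. The members and lists were chosen with earlier results of these data known. Deviations of same-numbered samples correlated at 0.111, 0.111 and 0.016, and those of differently numbered samples at -0.111 to 0.043. Such small values cannot settle whether replicate numbers pair the samples, and the main fit used no pairing. Alternatives were other normalisations (quantile, median, cyclic loess, normexp with offset 50), filters, variance models, probe rules, blocks for replicate number and scan, and each array left out.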

Additional observations from a re-analysis of the deposited data

How the results depend on the processing

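With 3 arrays a group and calls that rest on single arrays, the counts below depend strongly on the setting. Each of the 39 members was refitted under 20 other settings; 25 kept their direction in all of them, and the cause of each change was not tested. Counts are given as higher and lower in KO.

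Over all genes (3958 and 2789), quantile normalization gave 3128 and 2538, cyclic loess 2441 and 2841, and median centring 5114 and 2253, the last with the median of all genes at 0.18 in place of 0.06. Without the filter, over 32451 genes, 2611 were higher and 2187 lower. Array weights gave 9077 and 7368, the scan as a block 1158 and 1069, and the arrays of 1 scan alone 0 and 0. Leaving out 1 array gave 341 to 5729 higher and 277 to 5070 lower.

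In the sterol arm (1 and 1), 2 genes were higher under median centring, 3 with trend and robust eBayes, 6 with array weights, and 0 when probes of a gene were averaged, with the scan block or 1 scan alone. Lower were 2 under median centring, cyclic loess, normexp, the filter on 6 arrays, trend and robust eBayes and the mean of probes, 7 with array weights, 9 with the scan block and 0 on 1 scan alone. Leaving out 1 array gave 0 to 5 higher, 0 to 3 lower and a median from -0.52 to -0.14. In the lipogenic arm (5 and 1), 3 were higher under quantile normalization, normexp and no filter, 2 under cyclic loess, 8 with array weights and 0 with the scan block or 1 scan alone. Lower were 2 under normexp, 3 with array weights and 0 with no filter, the scan block or 1 scan alone. Leaving out 1 array gave 0 to 6 and 0 to 1. The lipogenic median turned from 0.16 to -0.08 with the scan block and on 1 scan alone.

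With the replicate number as a block, 2915 genes were higher and 2393 lower, with 3 lipogenic genes higher and 2 sterol genes lower. Of the 9 member calls 6 were kept (Acaca, Elovl6 and Insig2 were lost and Mvd was added). Deviations of same-numbered samples correlated weakly (0.111, 0.111 and 0.016), and whether the numbers pair the samples is not settled.

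Signs turned for 14 members. Under quantile normalization, Acat2 stood at 0, Acly at -0.15, Acss2 at -0.08, Ebp at -0.04, Mlxipl at -0.26 and Pmvk at -0.05. Under cyclic loess, Acat2 stood at -0.01, Acly at -0.23, Acss2 at -0.19, Mlxipl at -0.28, Pmvk at -0.15 and Scap at -0.04. Under normexp, Acly stood at -0.17, Ebp at -0.07, Mlxipl at -0.27, Pmvk at -0.07 and Scap at -0.01. With the mean of probes, Acacb stood at -0.15 and Acly at -0.17, and under median centring Sc5d at 0.02. With the scan block and on 1 scan alone, Acacb stood at -0.14, Acly at -0.12, Acss2 at -0.39, Fads1 at -0.22, Lss at -0.50, Mlxipl at -0.05 and Pmvk at -0.27. Without KO replicate 2, Fads2 stood at 0.06, Mvk at 0.04 and Sc5d at 0.01. Without WT replicate 2, Acly stood at -0.06, Acss2 at -0.02 and Scd2 at -0.09. Without KO replicate 1, Acly stood at -0.02, Acss2 at -0.09 and Pmvk at -0.05. Mlxipl stood at -0.03 without WT replicate 1 and at -0.02 without KO replicate 3. At the other end of the settings that left out 1 array, Acly stood at 0.15, Acss2 at 0.31, Fads2 at -0.32, Mvk at -0.35, Pmvk at 0.24, Sc5d at -0.20 and Scd2 at 0.30.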
